A study of Mus musculus with 8 samples.

Results

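Interferons are secreted signals that put cells into an antiviral state, and the 44 genes described here are 4 interferon receptor subunits, 8 transcription factors of the pathway, 4 sensors of foreign nucleic acid and 28 genes that interferon induces. They were followed in the brown fat of mice that lack Prdm16 and of wild-type mice, by 8 arrays of 2 colours. The members were the genes of a fixed list, found by the gene name that the array gives its non-control probes. Of the 44 listed genes 43 had a probe (55 probes in all), and 40 passed the filter on dim probes and were tested among 21736 genes. Ifi27 had no probe under that name, and Oas1g, Oas3 and Mx1 did not pass the filter.

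Each array compared a Prdm16 knockout sample with an age-matched wild-type (WT) sample, on 4 arrays at an age of 6 weeks and 4 at an age of 11 months, and the dyes were swapped on 2 of the 4 arrays at either age. The sources used here do not give the driver of the deletion, the exons removed, the strain or the sex of the mice. The labels call the arrays biological replicates and place the ages in separate batches. Values are knockout over wild-type ratios on the log2 scale, given per array in the order of replicates 1 to 4, or fitted with the standard error of a limma model of all 8 arrays (n = 4 arrays per age). A gene was called at a Benjamini-Hochberg adjusted p below 0.05 over all genes.

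Type I interferons bind the receptor subunits Ifnar1 and Ifnar2. The kinases Jak1 and Tyk2 then activate Stat2, which acts with Irf9 in a complex that binds the interferon-stimulated response element (ISRE) of its target genes. Interferon gamma, the type II interferon, binds Ifngr1 and Ifngr2 and signals through Jak1 and Jak2 to gamma-activated sites (GAS). The Ifit, Oas and Mx genes are the textbook targets of type I interferon, while the guanylate-binding and immunity-related GTPases lean towards interferon gamma, although each class responds to both. Prdm16 is a transcriptional regulator of brown fat identity and has been reported to hold down type I interferon-response genes in adipocytes.

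The promoters of 6 members are shown because each carries an ISRE core, and those of Oas1a and Igtp also a GAS. They are Ifit3, Isg15 and Oas1a as type I targets, Ifih1 as a sensor, and Gbp2 and Igtp as GTPases. The sequences run from 250 bases before to 50 bases after the start of the gene, 5′ to 3′ on the strand of the gene, from RefSeq (GRCm38.p6). Capitals mark each match to the ISRE core (GAAA and GAAA with any 2 bases between them, or TTTC and TTTC likewise for the other strand) or to the GAS (TTCNNNGAA, the same on both strands). Matches to the 2 motifs may overlap each other.
Ifit3 (chr19:34583279-34583578, + strand): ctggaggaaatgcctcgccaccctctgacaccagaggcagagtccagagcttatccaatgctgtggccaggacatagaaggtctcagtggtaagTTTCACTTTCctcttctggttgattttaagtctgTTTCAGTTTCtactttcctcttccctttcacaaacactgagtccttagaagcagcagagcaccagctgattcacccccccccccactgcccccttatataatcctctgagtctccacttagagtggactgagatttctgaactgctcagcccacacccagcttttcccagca
Isg15 (chr4:156200769-156201068, − strand): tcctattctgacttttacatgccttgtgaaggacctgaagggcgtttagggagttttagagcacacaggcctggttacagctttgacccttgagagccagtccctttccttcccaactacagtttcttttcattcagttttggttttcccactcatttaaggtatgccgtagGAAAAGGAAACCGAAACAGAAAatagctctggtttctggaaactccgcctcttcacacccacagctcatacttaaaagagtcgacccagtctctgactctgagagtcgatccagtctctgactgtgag
Oas1a (chr5:120907476-120907775, − strand): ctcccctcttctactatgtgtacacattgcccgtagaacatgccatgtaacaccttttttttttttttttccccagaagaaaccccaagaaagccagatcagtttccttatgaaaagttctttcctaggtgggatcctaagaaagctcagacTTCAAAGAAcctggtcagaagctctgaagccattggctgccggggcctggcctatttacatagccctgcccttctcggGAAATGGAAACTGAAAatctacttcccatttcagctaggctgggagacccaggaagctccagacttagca
Ifih1 (chr2:62646206-62646505, − strand): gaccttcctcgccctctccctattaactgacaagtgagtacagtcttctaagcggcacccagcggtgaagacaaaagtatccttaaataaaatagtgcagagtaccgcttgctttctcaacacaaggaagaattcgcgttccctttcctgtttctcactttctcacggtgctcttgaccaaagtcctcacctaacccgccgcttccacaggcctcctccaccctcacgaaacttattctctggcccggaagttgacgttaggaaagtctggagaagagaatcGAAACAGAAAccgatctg
Gbp2 (chr3:142620413-142620712, + strand): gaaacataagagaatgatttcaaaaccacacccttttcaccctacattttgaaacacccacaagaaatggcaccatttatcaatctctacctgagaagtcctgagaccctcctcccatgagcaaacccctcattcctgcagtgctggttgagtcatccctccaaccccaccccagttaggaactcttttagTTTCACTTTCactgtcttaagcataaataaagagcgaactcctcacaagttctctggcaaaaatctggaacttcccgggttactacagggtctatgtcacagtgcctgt
Igtp (chr11:58199306-58199605, + strand): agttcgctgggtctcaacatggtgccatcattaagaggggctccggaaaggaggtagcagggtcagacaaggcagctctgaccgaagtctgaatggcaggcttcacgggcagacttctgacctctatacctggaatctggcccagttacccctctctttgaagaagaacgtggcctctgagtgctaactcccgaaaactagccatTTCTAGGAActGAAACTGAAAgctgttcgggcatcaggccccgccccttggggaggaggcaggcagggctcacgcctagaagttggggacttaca
The Ifit3 window held 2 ISRE cores on the reverse strand, with no GAS. Isg15 held 3 overlapping ISRE cores in a single run of capitals, and Oas1a held 2 overlapping ISRE cores and a GAS further upstream. In Ifih1 the ISRE core lay after the start of the gene, and Igtp held a GAS just upstream of its ISRE core.

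RefSeq promoter windows were matched by symbol for 34 of the 44 members. An ISRE core stood in 17 of the 34 (50%), against 3.99% of 27025 genes with a window, and a GAS in 10 of the 34 (29.4%), against 9.55% of those genes. By role, the ISRE core was found in 4 of 4 GTPases, 2 of 2 matched sensors, 5 of 8 matched Ifit, Oas and Mx genes, 4 of 8 of the other interferon-stimulated genes, 2 of 8 transcription factors and 0 of 4 receptors. The ISRE core thus stood in type I-leaning and type II-leaning members alike. A match describes these letters in this window only.

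At 6 weeks the interferon genes of knockout and wild-type brown fat lay close together, while at 11 months most were higher in the knockout. At 6 weeks 5 of the 40 tested members were called higher (12.5%, against 9.17% of all genes tested) and 0 were called lower (7.03% of all genes). That share lies near the background, and 1 to 2 members were called when any of the 6-week arrays was left out, or 3 without 11-month replicate 1 or 2. In the same limma fit, 10 of the 40 members had an unadjusted p below 0.05 at that age, 2 of them lower. Of all 21736 genes tested 7117 had such a p, a larger share than among the members. At 11 months 29 of 40 were called higher (72.5%, against 17.9% of all genes) and 1 lower (16.8% of all genes). The median member ratio was 0.07 at 6 weeks and 0.58 at 11 months, where the median of all genes was -0.00 and 0.01.

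The ratio itself differed between the ages in 22 members, all towards higher values at 11 months (55%, against 8.46% of all genes; 0 members and 9.71% of all genes differed the other way). Of those 22, 21 were also called higher at 11 months, and the exception was Irf8. Also 22 members had all 4 ratios of the 11-month arrays above all 4 of the 6-week arrays (8.99% of all genes did), 0 had them all below (10.5% of all genes), and 20 of them were among the 22 called. All 4 ratios were above 0 in 31 members at 11 months (25% of all genes) and in 10 at 6 weeks (17.9% of all genes), and all 4 were below 0 in 1 and 3 members (25.3% and 16.6% of all genes). Without 6-week replicate 1 or 2, or 11-month replicate 2, the 22 called in the difference became 14, 12 and 14. Of the 22, 10 kept the call whichever of the 8 arrays was left out, namely Irf5, Irf7, Irf9, Ifih1, Ifit3, Ifi27l2a, Rtp4, Parp14, Lgals3bp and Gbp2, and 12 lost it without at least 1 array. Centring each array on its median in place of loess left 1, 32 and 9 members called higher at 6 weeks, at 11 months and in the difference. At 11 months 11 of the 40 members were called at least 2-fold higher, against 2.62% of all genes. The fitted folds among the 29 ran from 1.13 to 18.8. These sizes moved with the background correction: the member median of 0.58 became 0.91 without it, 0.91 in the deposited table and 0.97 with the scanner software's ratios, and 17, 17 and 20 members were called at least 2-fold higher. With the scanner software's ratios Irf7 reached 2.20, Ifi44 2.01, Ifit1 1.48, Oasl2 1.48, Irf5 1.26, Oasl1 1.07, Trim30 1.02 and Oas2 1.01, each well above its value given with the gene. The ages were separate batches, so age and batch cannot be told apart in these differences, while knockout and wild type share each array.

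**Figure D1:**
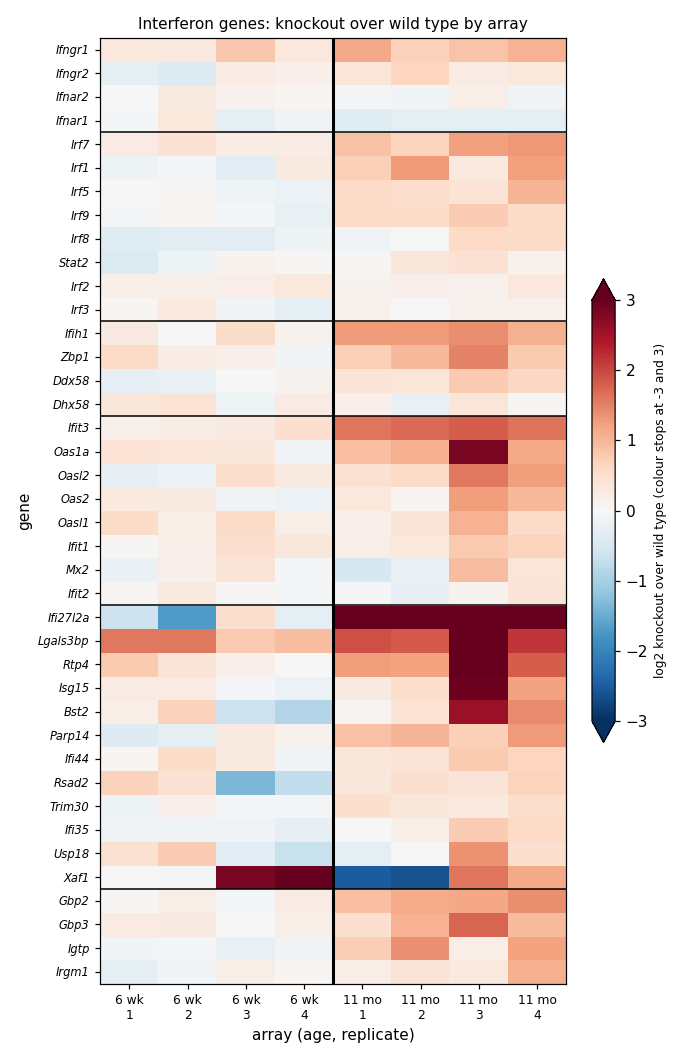
Log2 ratio of knockout over wild type for each of the 40 tested members (vertical axis, grouped by role with lines between groups) in each of the 8 arrays (horizontal axis, age and replicate), before adjustment for dye; red is higher in the knockout, and colours stop at -3 and 3. The 11-month columns are mostly red with replicate 3 the darkest in many genes, Ifi27l2a is beyond the colour scale in all 4 of them, and Xaf1 changes sign among the 11-month arrays.

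Prdm16 RNA itself was lower at both ages, with fitted ratios of -0.58 ± 0.15 (adjusted p = 0.0421) and -0.50 ± 0.15 (adjusted p = 0.0373), although its ratio in the 6-week replicate 2 was 0.06. The sources used here do not say whether its probe lies in the deleted part. Of 6 general adipocyte markers 4 were called higher at 6 weeks, 5 at 11 months and 0 lower, among them Adipoq (0.40 and 1.49), while Pnpla2 was not called at either age (-0.08 and -0.30). Brown adipocyte markers were called lower in 7 of 7 at 11 months (median -2.81) and in 0 of 7 at 6 weeks, where 2 of the 7 had an unadjusted p below 0.05. Skeletal muscle markers had medians of -2.81, 2.94 and -3.44 in 6-week replicates 2, 3 and 4 and of 1.72 in 11-month replicate 4, against -1.04 to 0.09 in the other arrays. Without those 4 arrays, 33 members were called higher and 2 lower at 11 months, with 1 residual degree of freedom, to which only 11-month replicates 1 and 2 contribute. The 6-week age is then a single array with no spread of its own. Between 61.2% and 68.2% of spots per channel were well above background, and the number of arrays limits the precision.

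Among the receptors, the interferon gamma receptor subunits were higher in knockout tissue at 11 months and those of the type I receptor were not. Ifngr1, the ligand-binding chain of the interferon gamma receptor, had ratios of 0.31, 0.28, 0.80 and 0.32 at 6 weeks and 1.13, 0.69, 0.86 and 1.04 at 11 months. The knockout channel was the higher in every array, and only 1 of the 6-week ratios reached the range of the older group. Ifngr1 was called higher at both ages (0.43 ± 0.10, adjusted p = 0.0322, and 0.93 ± 0.10, adjusted p = 0.000483), with a difference of 0.50 ± 0.15 that missed the threshold (adjusted p = 0.0532). The 6-week call was lost when any 1 of the 4 arrays of that age was left out. Ifngr2, its signalling partner chain, moved from -0.29, -0.38, 0.23 and 0.16 to 0.36, 0.64, 0.24 and 0.33, so that the ages did not overlap. Its fitted ratio was 0.39 ± 0.07 at 11 months (adjusted p = 0.00473), and the ages differed by 0.46 ± 0.10 (adjusted p = 0.0212). Without 6-week replicate 1 or 2, or 11-month replicate 2 or 3, that difference was not called.

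Ifnar1 was the only member called lower at 11 months, by the probe that stood for it, with ratios of -0.37, -0.27, -0.26 and -0.27 (-0.29 ± 0.08, adjusted p = 0.0217). Its other 2 probes gave -0.04 and -0.08 there, and with the mean of the 3 probes the call was lost. It was also lost without 11-month replicate 1, 3 or 4. Ifnar2 had fitted ratios of 0.12 (adjusted p = 0.274) and -0.01 (adjusted p = 0.928).

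Of the 8 transcription factors 5 were called higher at 11 months and 2 at 6 weeks. Irf7, the factor that amplifies the type I response and is itself induced by interferon, had ratios of 0.25, 0.44, 0.21 and 0.22 at 6 weeks and 0.87, 0.67, 1.22 and 1.29 at 11 months. Every array was above 0 and the ages did not overlap. The fitted ratio rose from 0.28 ± 0.07 (adjusted p = 0.0392) to 1.01 ± 0.07 (adjusted p = 7.89e-05), a difference of 0.73 ± 0.10 (adjusted p = 0.00463). The 6-week call was lost in 11 of 20 alternative settings, among them without 6-week replicate 2, 3 or 4 and without 11-month replicate 1 or 3.

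Irf9, the DNA-binding partner of Stat2, had fitted ratios of -0.07 ± 0.06 at 6 weeks and 0.61 ± 0.06 at 11 months (adjusted p = 0.000199). Its 11-month ratios of 0.57, 0.54, 0.75 and 0.58 were closely spaced, and the difference between ages was 0.68 ± 0.08 (adjusted p = 0.00271). Irf5, a factor of the inflammatory response in myeloid cells, followed the same course (0.59, 0.52, 0.42 and 1.02 at 11 months, fitted 0.64 ± 0.09, adjusted p = 0.00132).

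Irf1, an early target of interferon gamma, spread more widely, with 0.71, 1.28, 0.29 and 1.23 at 11 months against -0.16, -0.03, -0.34 and 0.26 at 6 weeks. Its lowest 11-month ratio, in replicate 3, stood just above its highest 6-week ratio. The fitted ratio at 11 months was 0.88 ± 0.17 (adjusted p = 0.00549), and its difference between ages was not called without 6-week replicate 1, 2 or 3, or 11-month replicate 2 or 4. Irf8, known from macrophages and dendritic cells, lay below 0 in all 4 arrays at 6 weeks (-0.29 ± 0.10, adjusted p = 0.101) and at 0.26 ± 0.10 at 11 months (adjusted p = 0.0896). Neither age was called for Irf8, and the difference of 0.55 ± 0.15 was (adjusted p = 0.0402), but not without 6-week replicate 1, 2 or 3, or 11-month replicate 2, 3 or 4.

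Irf2, which can restrain interferon responses, was called higher at both ages with small ratios (0.22 ± 0.06, adjusted p = 0.0424, and 0.17 ± 0.06, adjusted p = 0.0498). Of 20 alternative settings, 6 and 7 kept these calls. Irf3, the factor that switches on interferon beta, was not called, with fitted ratios of -0.01 and 0.10 (adjusted p = 0.951 and 0.335). Stat2 was not called either, at -0.10 and 0.23 (adjusted p = 0.528 and 0.11).

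Of the 4 sensors, 3 were called higher at 11 months, none at 6 weeks, where 2 of the 4 had an unadjusted p below 0.05 in the limma fit. Ifih1 (MDA5), which detects long double-stranded RNA in the cytoplasm and whose ISRE core is shown above, had ratios of 0.27, 0.01, 0.55 and 0.10 at 6 weeks and 1.28, 1.27, 1.40 and 1.06 at 11 months. The 4 older arrays differed little from each other and all lay above the younger ones. The fitted values were 0.23 ± 0.09 (adjusted p = 0.128) and 1.25 ± 0.09 (2.38-fold, adjusted p = 8.8e-05), differing by 1.02 ± 0.13 (adjusted p = 0.00352).

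Zbp1, a sensor of Z-form nucleic acid that can trigger cell death, had 0.72, 0.97, 1.50 and 0.79 at 11 months (0.99 ± 0.12, adjusted p = 0.000663), and its second kept probe gave 0.27. Ddx58 (RIG-I), which detects short RNA with a triphosphate end, had 0.40, 0.36, 0.78 and 0.62 (0.54 ± 0.09, adjusted p = 0.0035). The second kept probe of Ddx58 gave 0.19 and was not called there or in the difference between ages (limma, adjusted p = 0.0841 and 0.0715 over all probes). Dhx58 (LGP2), a relative of Ddx58 and Ifih1 that modulates both, was not called, with 0.14, -0.23, 0.36 and 0.05 at 11 months (0.08 ± 0.09, adjusted p = 0.546). The fitted ratios of the 4 sensors at 11 months thus ran from 0.08 to 1.25.

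**Figure D2:**
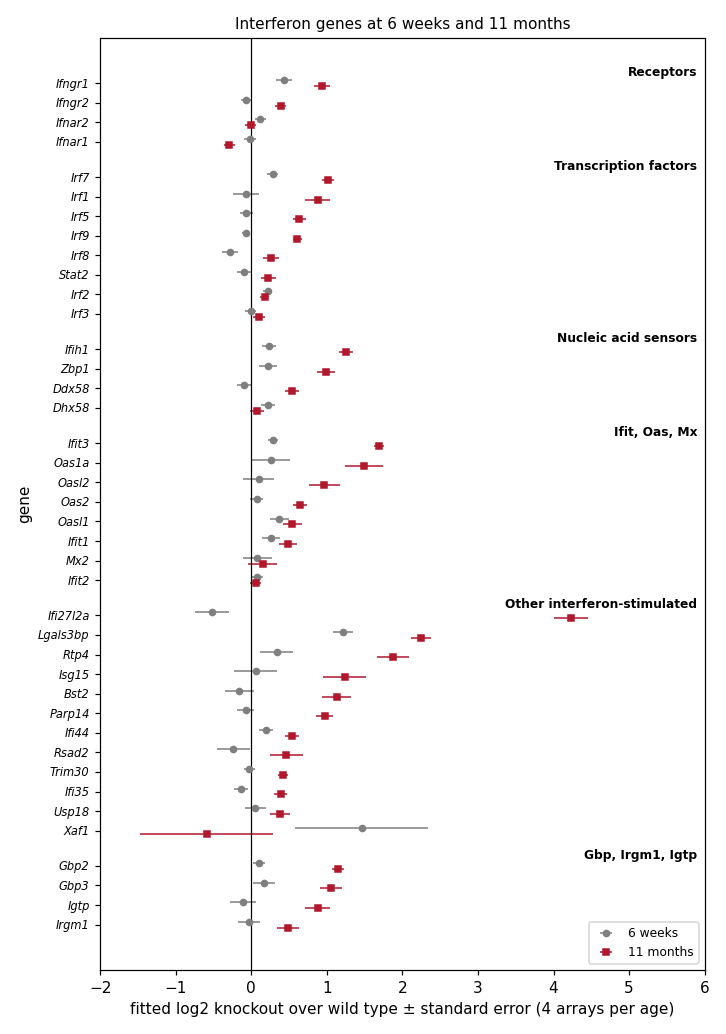
Fitted log2 ratio of knockout over wild type (horizontal axis) with its standard error for each of the 40 tested members (vertical axis, by role), grey circles for 6 weeks and red squares for 11 months, 4 arrays per age. Most red squares lie to the right of their grey circles, Ifi27l2a is the farthest right at 4.23, and Ifnar1, Ifnar2 and Xaf1 are the members below 0 at 11 months.

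In the Ifit, Oas and Mx group, 6 of the 8 tested members were called higher at 11 months and 1 at 6 weeks, while the difference between ages was called in 3. Ifit3 had ratios of 0.15, 0.22, 0.27 and 0.50 at 6 weeks and 1.61, 1.71, 1.81 and 1.62 at 11 months. The older arrays lay close together and far above the younger ones. Fitted ratios were 0.28 ± 0.07 (adjusted p = 0.0305) and 1.69 ± 0.07 (3.22-fold, adjusted p = 1.2e-05), and the difference was 1.40 ± 0.10 (adjusted p = 0.000807). The 6-week call was lost when any 1 array of that age, or 11-month replicate 2, was left out. Mice carry a close copy of Ifit3, Ifit3b, and whether the probe tells them apart was not tested.

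The other Ifit genes moved less. Ifit1, which binds foreign 5′ ends of RNA, had 0.17, 0.32, 0.79 and 0.68 at 11 months (0.49 ± 0.12, adjusted p = 0.0145), a call lost without 11-month replicate 3 or 4. Ifit2 had -0.05, -0.24, 0.11 and 0.41 there, on both sides of 0 (0.06 ± 0.07, adjusted p = 0.577).

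The Oas genes make the messenger that activates the antiviral nuclease RNase L. Oas1a had ratios of 0.41, 0.36, 0.35 and -0.09 at 6 weeks and 0.90, 1.07, 2.85 and 1.14 at 11 months, where replicate 3 stood far above the other arrays. Its fitted ratio was 1.49 ± 0.25 at 11 months (adjusted p = 0.00295) and 1.07 ± 0.10 without replicate 3 (adjusted p = 0.000538), and its second kept probe gave 0.53. The difference between ages was 1.23 ± 0.35 (adjusted p = 0.0481), kept in 6 of 19 alternative settings and lost when any 1 of the 6-week arrays, or 11-month replicate 1 or 2, was left out. Oas2 had 0.33, 0.05, 1.25 and 0.97 (0.65 ± 0.09, adjusted p = 0.00135), and its ratios at the 2 ages overlapped.

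Oasl2 had 0.46, 0.56, 1.59 and 1.25 at 11 months (0.97 ± 0.21, adjusted p = 0.0088) and Oasl1 had 0.16, 0.39, 1.04 and 0.57 (0.54 ± 0.13, adjusted p = 0.0127), the latter not called without 11-month replicate 2. Oasl1 is known to hold back the translation of Irf7, and Oasl2 is an enzyme like the Oas proteins. Mx2, a dynamin-like GTPase that blocks viruses, spread on both sides of 0 (-0.47, -0.22, 0.94 and 0.36) and was not called at 11 months (0.15 ± 0.19, adjusted p = 0.585). Oas1g, Oas3 and Mx1 were not well above background in enough channels to be tested.

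The largest change of any member was in Ifi27l2a, an interferon-induced protein of the ISG12 family. Its ratios were -0.61, -1.70, 0.47 and -0.26 at 6 weeks and 4.96, 4.30, 4.25 and 3.43 at 11 months. All older arrays lay far above all younger ones. The fitted ratio was 4.23 ± 0.23 at 11 months (18.8-fold, adjusted p = 2.63e-05), rank 4 of 21736 genes from the highest, and -0.53 ± 0.23 at 6 weeks (adjusted p = 0.152). The difference between ages, 4.76 ± 0.32 (adjusted p = 0.000807), was rank 1 of 21736.

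The channel levels of Ifi27l2a were read beside that ratio. A channel level is the normalised log2 intensity of the knockout or wild-type RNA of an array. It can be compared between arrays of the same age for a single gene, but not between genes. Between the ages, levels also carry the batch and the slide. The Ifi27l2a level of wild-type tissue was 17.5, 17.4, 16.7 and 17.0 at 6 weeks and 13.1, 13.9, 14.6 and 15.3 at 11 months. In knockout tissue it was 16.9, 15.7, 17.2 and 16.7 at 6 weeks and 18.0, 18.2, 18.8 and 18.7 at 11 months. Wild-type levels were thus lower, and knockout levels higher, in the older batch than in the younger. Age, batch and slide cannot be told apart in these levels. The probe lies on chromosome 12 at 104680394 to 104680453 of mm9, on the − strand.

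Close by on the + strand (chromosome 12, 104678353 to 104678412) lies a probe that the array calls Ifi27l1 and whose accession RefSeq gives as Ifi27. It gave -1.68, -1.03, -0.17 and -0.09 at 6 weeks (-0.74 ± 0.23, adjusted p = 0.0666) and -0.78, -1.07, -0.33 and -1.11 at 11 months (-0.82 ± 0.23, adjusted p = 0.0279). Ifi27, another gene of the family, was therefore lower in the knockout at the age at which Ifi27l2a was higher. Its ratio was similar at 6 weeks, and the difference between ages was -0.08 ± 0.33 (limma, adjusted p = 0.891 over all probes). It is not counted among the 40, since the rule uses the array's names.

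Lgals3bp, a secreted glycoprotein that binds galectins, was the member most clearly higher at 6 weeks, with 1.59, 1.58, 0.78 and 0.92. At 11 months it had 1.93, 1.85, 3.07 and 2.14, above every younger array. The fitted ratios were 1.22 ± 0.13 (2.32-fold, adjusted p = 0.00218) and 2.25 ± 0.13 (4.75-fold, adjusted p = 3.44e-05), with a difference of 1.03 ± 0.18 (adjusted p = 0.00966). Its 6-week call held in 20 of 20 alternative settings. Its second kept probe gave 0.47 at 6 weeks and 0.92 at 11 months, so the direction was shared and the size was not.

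Rtp4, a chaperone of receptors that interferon induces, had 0.79, 0.39, 0.16 and -0.00 at 6 weeks and 1.26, 1.21, 3.21 and 1.81 at 11 months, with no overlap. Its fitted ratio at 11 months was 1.87 ± 0.21 (3.66-fold, adjusted p = 0.000527), and 1.52 ± 0.09 without replicate 3. Bst2 (tetherin), which holds budding virus at the cell surface, had 0.17, 0.68, -0.63 and -0.87 at 6 weeks and 0.08, 0.42, 2.60 and 1.42 at 11 months. Knockout over wild type was higher at both ages in the arrays with knockout RNA in Cy3, and the dye coefficient of Bst2 was -0.73. With dye in the model Bst2 was called higher at 11 months (1.13 ± 0.19, adjusted p = 0.00332), and without a dye coefficient it was not called.

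Isg15, a ubiquitin-like protein joined to other proteins during the antiviral response, had 0.24, 0.24, -0.07 and -0.19 at 6 weeks and 0.26, 0.52, 2.95 and 1.21 at 11 months. Replicate 3 stood far above the other arrays in this ratio. The dye coefficient of Isg15 was -0.51, and with it removed the 11-month ratios were 0.78, 1.04, 2.44 and 0.70. The fitted ratio at 11 months was 1.24 ± 0.28 (adjusted p = 0.0121) and 0.76 ± 0.10 without replicate 3, and the difference between ages missed the threshold (1.18 ± 0.40, adjusted p = 0.0813). Its second kept probe gave 0.57 at 11 months. Usp18, the protease that removes Isg15 and damps the type I receptor, was not called at 11 months (-0.27, -0.02, 1.34 and 0.47; 0.38 ± 0.14, adjusted p = 0.0656). Its dye coefficient was -0.54, and with that removed the 11-month ratios were 0.27, 0.52, 0.80 and -0.07.

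Parp14, a mono-ADP-ribosyltransferase, rose evenly at 11 months (0.87, 1.02, 0.72 and 1.27; 0.97 ± 0.11, adjusted p = 0.000576) from 6-week ratios of -0.38 to 0.27. Smaller ratios above 0 were called at 11 months for Ifi44 (0.54 ± 0.09, adjusted p = 0.00352), Trim30, listed as Trim30a by RefSeq (0.42 ± 0.07, adjusted p = 0.00265), and Ifi35 (0.39 ± 0.09, adjusted p = 0.0114). The difference between ages was not called for Ifi44 (0.35 ± 0.13, adjusted p = 0.109). Rsad2 (viperin), an enzyme that makes an antiviral nucleotide, had 0.34, 0.47, 0.38 and 0.67 at 11 months but -1.35 to 0.69 at 6 weeks, and was not called at either age (0.46 ± 0.22, adjusted p = 0.137 at 11 months).

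Xaf1, a pro-apoptotic protein, gave no single answer. Its brighter probe had ratios of 0.01, -0.04, 2.84 and 3.04 at 6 weeks and -2.49, -2.62, 1.62 and 1.13 at 11 months, and the fitted ratios of 1.46 ± 0.88 and -0.59 ± 0.88 were not called (adjusted p = 0.297 and 0.645). Its knockout levels by that probe were 7.07, 9.57, 9.56, 9.71, 6.73, 6.94, 12.2 and 11.0 over the 6-week and then the 11-month arrays, and its wild-type levels 7.06, 9.62, 6.73, 6.67, 9.22, 9.57, 10.6 and 9.84. In both genotypes some samples thus lay near the low end and others well above it. The other Xaf1 probe gave 0.90, 1.54, 0.79 and 1.18 at 11 months and -0.26 to 0.13 at 6 weeks (fitted 1.10 ± 0.13 and -0.08 ± 0.13). The probes lie on chromosome 11 of mm9, the brighter at 72127175 to 72127234 and the other upstream of it at 72122169 to 72122228.

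**Figure D3:**
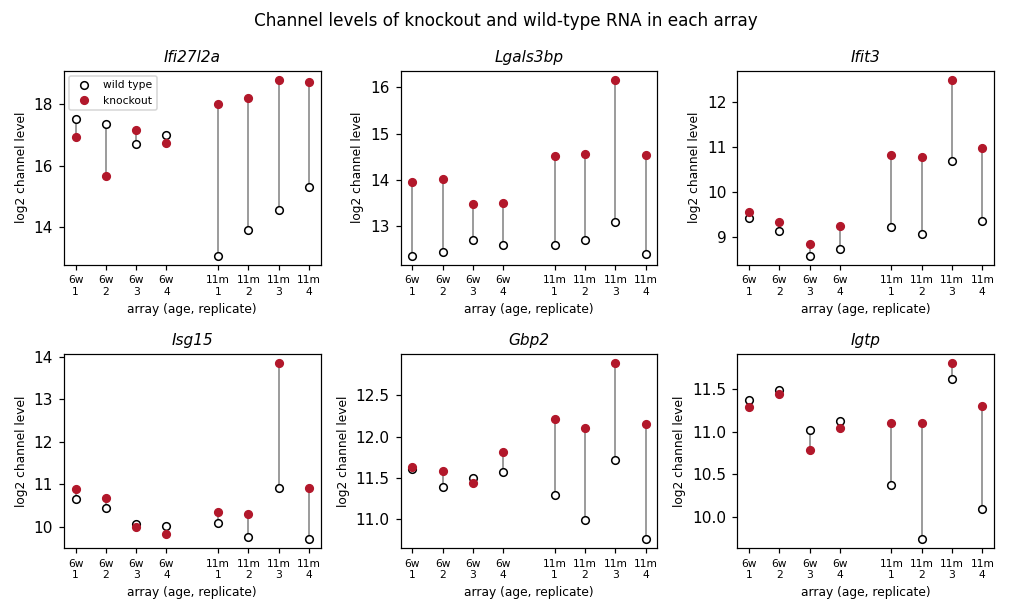
Normalised log2 channel level (vertical axis, its range set for each gene) of knockout RNA (red) and wild-type RNA (white) in each of the 8 arrays (horizontal axis, age in weeks or months and replicate) for 6 members, with a grey line joining the samples of an array. Ifi27l2a has lower wild-type and higher knockout levels at 11 months than at 6 weeks, where age and batch cannot be told apart. The 11-month replicate 3 stands high in both genotypes for Ifit3, Isg15, Gbp2 and Igtp.

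The 4 GTPases, which help destroy vacuoles that hold pathogens, were called higher in 4 of 4 at 11 months and in 0 of 4 at 6 weeks, where none had an unadjusted p below 0.05 in the limma fit. Gbp2 had ratios of 0.03, 0.19, -0.05 and 0.25 at 6 weeks and 0.91, 1.11, 1.17 and 1.39 at 11 months, with no overlap. Its fitted ratio at 11 months was 1.14 ± 0.08 (2.21-fold, adjusted p = 7.08e-05), and the difference was 1.04 ± 0.11 (adjusted p = 0.00223). Gbp3 had 0.47, 1.04, 1.75 and 0.95 (1.06 ± 0.14, adjusted p = 0.00119).

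Igtp (Irgm3) had -0.09, -0.04, -0.23 and -0.09 at 6 weeks and 0.74, 1.36, 0.20 and 1.22 at 11 months. Its lowest older ratio was in replicate 3, where its wild-type level was 11.6 against 9.74 to 10.4 in the other 11-month arrays. The fitted ratio was 0.88 ± 0.17 (adjusted p = 0.0057), with a difference between ages of 0.99 ± 0.24 (adjusted p = 0.0287) that was lost when any 1 of the 6-week arrays, or 11-month replicate 2 or 4, was left out. Irgm1, a regulator of this GTPase family, had 0.19, 0.39, 0.29 and 1.08 (0.49 ± 0.14, adjusted p = 0.0339), a call lost without 6-week replicate 2 or 11-month replicate 2 or 4. Its second kept probe gave 0.31 and was not called (limma, adjusted p = 0.0732 over all probes).

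Set side by side, the type I-leaning and type II-leaning members both stood higher at 11 months. The median fitted ratio was 0.97 for the 4 GTPases, 0.77 for the 4 sensors and 0.59 for the 8 Ifit, Oas and Mx genes, against 0.04, 0.22 and 0.18 at 6 weeks and 0.01 for all genes at 11 months. Fitted ratios at 11 months ran from 0.49 to 1.14 in the GTPases and from 0.06 to 1.69 in the Ifit, Oas and Mx genes. The ranges thus overlapped, and the difference between the groups was not tested. Of 17 further interferon gamma-inducible genes tested, 9 were called higher at 11 months, 1 lower and 7 not (median 0.28). Of 48 further interferon-stimulated genes tested, 26 were called higher, 1 lower and 21 not (median 0.34). These further genes were listed with earlier results of these data known. Among all genes 17.9% were called higher and 16.8% lower.

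The groups differed in which array stood highest. The medians over 11-month replicates 1 to 4 were 0.25, 0.35, 1.15 and 0.82 for Ifit, Oas and Mx, and 0.61, 1.07, 0.73 and 1.15 for the GTPases. The GTPase median was the higher in replicates 1, 2 and 4, and the Ifit, Oas and Mx median in replicate 3. With the dye coefficient removed the medians were 0.41, 0.45, 0.91 and 0.63, and 0.67, 1.20, 0.68 and 1.16. The GTPase median was again the higher in replicates 1, 2 and 4, but its highest array was then replicate 2 in place of 4. Before adjustment for dye, replicate 3 held the highest ratio of its age in 7 of 8 Ifit, Oas and Mx members and 4 of 4 sensors. It did so in 8 of 12 other interferon-stimulated genes and 1 of 4 GTPases, against 22.8% of all genes. With the dye coefficient removed these counts were 7, 3, 9 and 1.

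That array stood high in both of its samples. Of the 40 tested members, 32 had their highest 11-month knockout level and 31 their highest wild-type level in replicate 3 (26.2% and 23.7% of all genes). Against replicate 4, which had the same dye orientation, the median member was higher by 0.80 in the knockout and by 0.70 in the wild-type channel, while the medians of all genes were -0.02 and 0.01. Replicates 1 and 2, the other pair of that age, differed by medians of -0.01 and 0.08. Without replicate 3, 27 members were called higher at 11 months and 20 in the difference, with a median of 0.58 at 11 months. The calls lost at 11 months were those of Irf2 and Ifit1.

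Across samples, the 4 knockout levels lay above the 4 wild-type levels in 13 members at 11 months (12.9% of all genes) and in 4 at 6 weeks (10.5% of all genes). The 13 were Ifngr1, Ifngr2, Irf1, Irf5, Ddx58, Ifih1, Ifit3, Ifi27l2a, Bst2, Rtp4, Parp14, Lgals3bp and Gbp2. Isg15, Oas1a and Igtp were not among them, as the wild-type level of replicate 3 lay above their lowest knockout level.

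**Figure D4:**
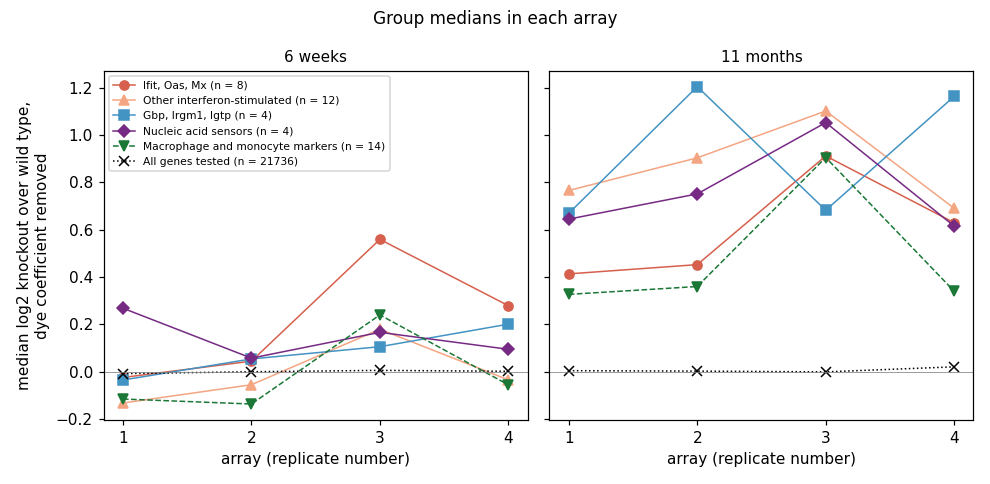
Median log2 ratio of knockout over wild type with the dye coefficient removed (vertical axis) in each array (horizontal axis, replicate number, 6 weeks on the left and 11 months on the right) for 4 groups of members, the macrophage and monocyte markers and all genes; lines only join the points of a group. At 11 months the medians of Ifit, Oas and Mx and of the macrophage markers were highest in replicate 3 (0.91 and 0.91), where the GTPases stood at 0.68, and all genes stayed near 0.

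Markers of immune cells were read beside the interferon genes, since macrophages express many of them. In whole tissue, fewer cells of a type and less RNA per cell cannot be told apart. Of 14 macrophage and monocyte markers 9 were called higher at 11 months (median 0.45), among them the macrophage surface protein Adgre1 (0.66 ± 0.09, adjusted p = 0.000917), and 1 was called higher and 1 lower at 6 weeks. Their medians over 11-month replicates 1 to 4 were 0.13, 0.02, 0.96 and 0.62. They moved with the Ifit, Oas and Mx medians in being highest in replicate 3. Of the 14 markers 11 had their highest 11-month knockout level and 6 their highest wild-type level in that array, and against replicate 4 the median marker was higher by 0.89 in the knockout and 0.33 in the wild-type channel. Their part in the result was not tested.

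Neutrophil markers were called higher at 11 months in 3 of 6. Of 13 T and NK cell markers 10 were tested, and 0 were called higher and 1 lower (median 0.04), where 2 had an unadjusted p below 0.05 in the limma fit. None of the 6 tested of 8 dendritic cell markers and the 4 tested of 6 B cell markers was called at that age in that fit, with 3 and 0 at an unadjusted p below 0.05. Of the 40 members 31 had a negative dye coefficient, that is, a higher signal in Cy3 (median -0.10, against -0.00 for all genes). Knockout RNA was in Cy3 in 11-month replicates 3 and 4 and in 6-week replicates 1 and 2.

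Of 100 further interferon pathway genes, listed to set the members in context, 89 were tested. This list was written with earlier results of these data known, so its shares are not independent of them. At 11 months 44 were called higher (49.4%, against 17.9% of all genes) and 5 lower (16.8% of all genes). At 6 weeks 5 were called higher (5.62%, against 9.17% of all genes) and 1 lower (7.03% of all genes). In the difference 29 were higher (32.6%, against 8.46% of all genes) and 2 lower (9.71% of all genes). Jak1, the kinase shared by both receptor types, was called higher at 11 months (0.45 ± 0.05, adjusted p = 0.000595). Tyk2, a kinase of the type I receptor, was not called at either age (-0.11 and -0.01). The interferon-inducible inhibitor Socs1 was not called at either age, with 6-week ratios of 0.31, 1.87, 1.92 and 0.05 that ran from near 0 to far above it (1.04 ± 0.31, adjusted p = 0.061). Of 6 interferon ligands listed, 1 passed the filter on dim probes and it was not called.

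The highest called ratios at 11 months in this wider list were those of Nlrc5, Ifi204, Oas1f and Ly6e. Nlrc5, the activator of class I antigen presentation genes, had 0.05 at 6 weeks and 1.30 ± 0.17 at 11 months. Ifi204, a DNA-binding member of the interferon-inducible p200 family, had 1.18 ± 0.21 at 11 months, Oas1f 1.06 ± 0.19 and Ly6e 1.03 ± 0.14. In the difference between ages the 4 largest called values were those of Nlrc5 (1.25), Ifi204 (1.23), Ly6e (1.08) and the chemokine Cxcl10 (1.07 ± 0.19). The 4 lowest called ratios at 11 months were those of Cd274 (-0.89 ± 0.16), Ticam1 (-0.53 ± 0.07), Ptpn2 (-0.49 ± 0.08) and Pnpt1 (-0.46 ± 0.06). Cd274 is the checkpoint ligand PD-L1, Ticam1 the adaptor of Toll-like receptor signalling to interferon, and Ptpn2 a phosphatase of Jak1. In the difference Lgals9 (-0.65) and Pnpt1 (-0.40) were the lower calls.

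At 6 weeks the 4 highest called ratios in the wider list were those of Gbp2b (1.24 ± 0.09), Lgals9 (0.83 ± 0.13), Ptpn11 (0.41 ± 0.09) and Tor3a (0.30 ± 0.07). Nos2 was called lower (-0.27 ± 0.05). Gbp2b had ratios of 0.25 and 0.18 in the 6-week arrays with knockout RNA in Cy3 and 2.13 and 2.40 in those with it in Cy5, and at 11 months 2.15 and 1.69 in Cy5 and -0.01 and 0.11 in Cy3. Its ratio was thus the larger with knockout RNA in Cy5 at both ages.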

How the data were processed

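Brown fat RNA was hybridised to 8 Agilent arrays of 2 colours, 1 knockout and 1 wild-type sample per array. The deposited tables hold, per the file headers, foreground and background intensity per spot and channel from Feature Extraction 10.5.1.1 (6 weeks) and 10.10.1.1 (11 months), on a design annotated to mm9, with each age on its own slide. Per the file headers, the scanner software's own log10 ratios (Cy5 over Cy3) stand beside them. The deposited value table holds log2 ratios, and limma is named in the submitters' processing notes. Its values correlated with the scanner ratios turned to knockout over wild type at r = 0.975 to 0.99 over spots above background, and they were used as an alternative only.

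Intensities were corrected by normexp (offset 50) and normalised by loess within arrays in limma 3.58.1 (R 4.3.3), with control and outlier spots at weight 0. Channel levels were further normalised between arrays by quantiles of average intensity. Probes well above background in at least 4 of 16 channel measurements, on at least 3 arrays per age, were kept, and the brightest stood for its gene. The model of 8 arrays had a coefficient per age and a shared dye coefficient (5 residual degrees of freedom), with Benjamini-Hochberg adjustment over 21736 genes. On simulated data for the 6-week comparison (21736 genes), 84% of changes of log2 size 1 and 100% of size 2 were recovered, with 9 false calls. Motifs were searched in RefSeq windows of GRCm38.p6. Alternatives covered background correction, normalisation, filters, probe choice, dye terms, a replicate block and leaving out each array.

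The members and lists were chosen with earlier results of these data known. All members are accounted for. Of the other pathway genes, up to 4 with the largest change in each direction and comparison among those called are named, with Jak1, Tyk2 and Socs1 always. Another pathway gene that was always to be named is not reported here. Prdm16, Ucp1 and Adipoq served as checks. Ucp1 had fitted ratios of 0.13 ± 0.44 at 6 weeks and -4.05 ± 0.44 at 11 months.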

Additional observations from a re-analysis of the deposited data

Results flagged for a closer look

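In 9 of 80 sets of 4 ratios of a member at a single age, the highest or lowest array lay far from the others by Dixon's criterion, which chance meets in about 1 in 20 sets. The widest gap on the log2 scale was that of 11-month replicate 3 in Oas1a (2.85, nearest other array 1.14). The same array was set apart upwards in Irf9 (0.75, nearest 0.58) and Ifnar2 (0.19, nearest -0.06). In the other 11-month sets, replicate 1 was the lowest in Ifnar1 (-0.37) and replicate 2 the lowest in Irf3 (0.0077). At 6 weeks, replicate 3 was the highest in Ifngr1 (0.80) and replicate 2 in Irf7 (0.44), and replicate 4 was the lowest in Oas1a (-0.087) and Ifi35 (-0.24).

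The effect of the knockout differed between the ages in 22 members by the contrast of the limma model, 11 months minus 6 weeks: Ifngr2 (0.46), Irf1 (0.95), Irf5 (0.70), Irf7 (0.73), Irf8 (0.55), Irf9 (0.68), Ddx58 (0.63), Ifih1 (1.02), Zbp1 (0.77), Ifit3 (1.40), Oas1a (1.23), Oas2 (0.58), Ifi27l2a (4.76), Bst2 (1.29), Rtp4 (1.54), Parp14 (1.04), Ifi35 (0.52), Lgals3bp (1.03), Trim30 (0.44), Gbp2 (1.04), Gbp3 (0.88) and Igtp (0.99). Leaving out single arrays ended 12 of these calls: those of Bst2 (without 11-month replicate 2), Ddx58 (6-week 2), Zbp1 (6-week 2 or 4, 11-month 2), Oas2 (6-week 1 or 2, 11-month 1), Trim30 (6-week 3 or 4, 11-month 1), Gbp3 (6-week 1, 2 or 3, 11-month 2), Ifngr2 (6-week 1 or 2, 11-month 2 or 3), Irf1 (6-week 1, 2 or 3, 11-month 2 or 4), Ifi35 (6-week 1, 2 or 4, 11-month 2, 3 or 4), Irf8 (6-week 1, 2 or 3, 11-month 2, 3 or 4), Igtp (any 6-week array, 11-month 2 or 4) and Oas1a (any 6-week array, 11-month 1 or 2). The ages were separate batches.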

How the results depend on the processing

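Of the values of single members under the alternatives, 2142 kept their side of the threshold, 152 lost a call and 60 gained one. A further 6 were counted as turned in direction. A change of sign in a value that was not called was not counted, as in Mx2 at 11 months (0.15, and -0.09 without 11-month replicate 3). The number called higher at 11 months stayed between 26 and 33 over the alternatives (29 reported). The 6-week and difference counts were less stable. At 6 weeks 2 members were called higher without background correction, 1 with the scanner software's ratios, 1 with median centring and 2 with the deposited log2 table (5 reported). Median centring also gave 9 members in the difference (22 reported) and 0 called lower at 11 months, as did the mean of all kept probes. Over all genes, median centring called 949, 4908 and 548 at 6 weeks, at 11 months and in the difference, 70.0%, 70.8% and 59.7% of them higher, against 3521, 7540 and 3950 with 56.6%, 51.6% and 46.6% higher. A dye coefficient per age called 1, 2 and 1 members lower, and modelling each age alone 1 and 2. Leaving out each array in turn gave 1 to 5 higher at 6 weeks, 26 to 29 higher and 0 to 1 lower at 11 months, and 12 to 20 higher in the difference. An added alternative, chosen after seeing the data, left out the 4 arrays of largest skeletal muscle ratio, so that the 6-week values rested on 1 array and the spread on 11-month replicates 1 and 2 (1 residual degree of freedom). It called 2 members higher and 6 lower at 6 weeks, 33 higher and 2 lower at 11 months and 24 higher in the difference. All 6 values counted as turned arose there: at 6 weeks Oasl2 (-0.79), Mx2 (-0.83), Isg15 (-1.04), Rsad2 (0.70) and Xaf1 (-2.08), and in the difference Xaf1 (1.61). The member median at 11 months ranged up to 0.97, with the scanner software's ratios. Replicate numbers did not pair the arrays of the 2 ages: deviations from the age means correlated at -0.20 to -0.06, and 0 of 8 arrays correlated best with their own number. Same-numbered arrays had opposite dyes. Residuals with the shared dye coefficient correlated at 0.17 to 0.46 for the same number (6 of 8 arrays best with their own) and at 0.16 to 0.45 for the other number of the same orientations, and with a dye coefficient per age the same-number range was -0.06 to 0.09. A replicate block gave 6, 32 and 25 members higher and 2, 2 and 1 lower. The causes were not tested. Signal over background limited Oas1g, Oas3 and Mx1, which could not be tested.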
